A study of Mus musculus with 2 samples.

Results

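The enzymes and partner proteins that write, copy, oxidise and remove cytosine methylation on DNA were examined for N6-methyladenosine (m6A) on their own mRNAs. The set holds 8 genes, chosen by name: Dnmt1, Dnmt3a, Dnmt3b, Uhrf1, Tet1, Tet2, Tet3 and Tdg. Of these, 6 were listed in the m6A tables and 3 (Tdg, Dnmt1 and Uhrf1) reached the depth required here. A site was a listed position with at least 20 reads in replicate 2, and the set held 27 of the 16212 sites of that library. The RNA was poly(A) RNA of day 6 retinal organoids, aggregates of early eye tissue grown from the mouse stem cell line Rx:GFP, in which a fluorescent protein reports the eye-field gene Rx. Both libraries came from wild-type (WT) organoids differentiated for 6 days with AGN at 0.1 µM. They form 1 group with n = 2, share 1 batch label and were each run on a flow cell of their own. No label says whether they came from separate cultures, so the spread between them may be technical. The design has no second condition, and an exact permutation test over 2 replicates cannot give a p-value below 0.5. None was run, and values are described.

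Cytosine methylation is copied at each DNA replication by DNMT1, which UHRF1 recruits to hemimethylated DNA. DNMT3A and DNMT3B place it on unmethylated DNA, TET enzymes oxidise 5-methylcytosine, and TDG cuts out the most oxidised forms for base excision repair. During differentiation of pluripotent cells these activities reset the methylation of promoters and enhancers. m6A is a separate mark, made on adenosines of mRNA by the METTL3 complex within the DRACH context, and it can alter how long a transcript persists and how it is translated.

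Each listed position lies on 1 of 4 motifs of 5 bases, shown here because the level differed between them. No other motif is listed for any gene, so m6A in other sequence contexts is not covered by the counts of sites. All of them hold an adenosine flanked by a purine and a cytosine, the base that is methylated in the DRACH context, as the capital in ggAca shows. GGACA had the highest median fraction over all sites of replicate 2, with 0.667, followed by AGACT (0.263), GGACC (0.231) and GGACT (0.230). Fractions of different motifs are therefore not directly comparable, and a motif value is given beside some of the sites below. The base to which a listed position refers was read from transcripts whose position lies within 45 nt of the start. Of 132 such positions, 46 had their motif in the first 50 bases after a RefSeq start of the gene (GRCm38.p6), and 22 of them lay exactly 3 bases after the first base of the motif. The next most frequent distance was seen at 2 positions. By this reading the adenosine is the base before the listed position. Positions are printed as deposited.

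A pair of motifs on the Uhrf1 mRNA abuts, and this stretch carried the widest contrast among pairs of positions of the set within 20 nt of each other. It was assembled from the AGACT listed at position 3485 and the GGACA listed at position 3490 of transcript ENSMUST00000001258.14, 5 nt apart. The capitals mark the adenosines at positions 3484 and 3489.
Uhrf1: agActggAca

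Depth divided the genes of the set. The highest coverage at any listed position was 71 reads in Tdg, 45 in Dnmt1, 33 in Uhrf1, 17 in Dnmt3a, 15 in Tet3 and 6 in Dnmt3b in replicate 2. In replicate 1 it was 32 in Tdg, 18 in Uhrf1, 17 in Dnmt1 and 8 in Dnmt3a, while Dnmt3b and Tet3 were not listed. Among all named genes of replicate 2, the maximum of Tdg lay above 85.2% of genes, that of Dnmt1 above 75.7% and that of Dnmt3b above 6.22%. Tet1 and Tet2, the other TET oxidases, were listed in neither replicate. No position under 5 reads was listed for any gene, so an unlisted gene is not shown to be absent or unmodified. In whole organoids, fewer cells of a type and less RNA per cell cannot be told apart. A site was found in 3 of the 6 listed genes, against 48.6% of all named genes listed in replicate 2.

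**Figure D1:**
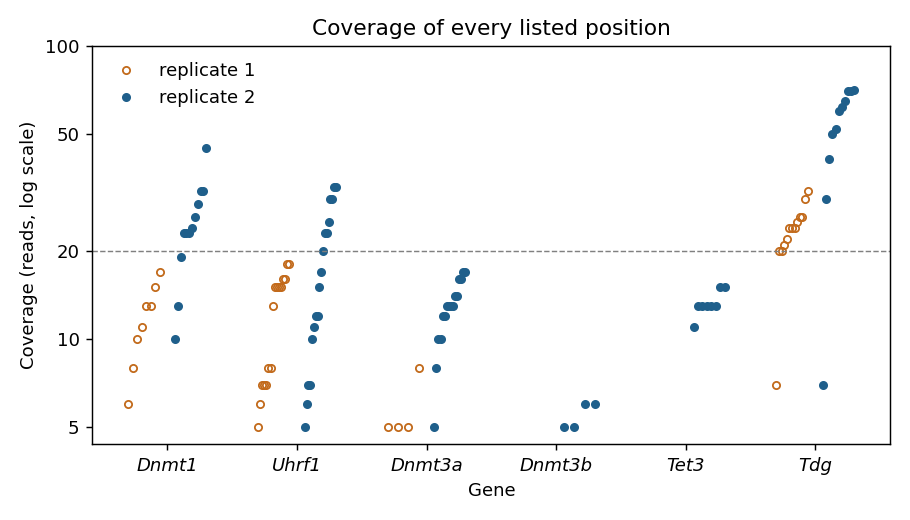
Reads over every listed position of the 6 listed genes, on a log axis, with replicate 1 as open and replicate 2 as filled circles; the dashed line is the minimum of 20 reads. Tdg, Dnmt1 and Uhrf1 pass the line in replicate 2, Tdg alone passes it in replicate 1, and Dnmt3a ends at 17 reads.

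The replicates were of unequal depth. Coverage at the 20 sites of the set listed in both was a median of 2.5 times as high in replicate 2 (range 1.53 to 3.25). Only 9 sites, all in Tdg, had 20 reads in both. The tissue label was checked against marker genes: 10 of 11 eye-field and retinal progenitor genes were listed in replicate 2 and 9 had a site, while 0 of 7 pluripotency, 0 of 5 mesoderm and endoderm and 0 of 3 neural crest genes were listed. Markers of pigment epithelium (3 of 5) and of neurons (1 of 5) were listed with at most 17 reads.

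Dnmt1 (chromosome 9, 20818505 to 20871184, gene coordinates as deposited, build not named in the tables), the maintenance methyltransferase, carried both a nearly complete and a nearly unmodified site. It had 9 sites on 3 transcripts, which correspond to 6 places on the mRNA once the transcripts are aligned by a constant shift. At position 2603 of ENSMUST00000004202.16, a GGACA, the fraction was 1 in replicate 1 (8 reads) and 1 in replicate 2 (26 reads). The matching position 2484 of ENSMUST00000177754.8 had 0.958 in replicate 2 (24 reads). The matching position 3106 of ENSMUST00000178110.2 had 0.947 over 19 reads, just under the minimum. All 3 transcripts were thus high at this place, where 16.0% of GGACA sites of replicate 2 reach 0.947 or more.

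A low place was shared by all 3 Dnmt1 transcripts. The GGACC at position 4434 of ENSMUST00000004202.16 had a fraction of 0 in replicate 1 (15 reads) and 0.0556 in replicate 2 (45 reads). On ENSMUST00000177754.8 the same place had 0 over 10 and 0.037 over 32 reads, and on ENSMUST00000178110.2 it had 0.1 over 11 and 0.0769 over 29 reads. These 3 transcripts did not exceed 0.1 in either replicate, below the GGACC median of 0.231. Between both places, the GGACA at position 3989 of ENSMUST00000177754.8 had 0.556 in replicate 2 (32 reads). It was not listed in replicate 1 on that transcript, although ENSMUST00000004202.16 listed the place there as position 4108 with 0.556 over 13 reads.

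Toward its start Dnmt1 was measured in replicate 2 alone. The AGACT at position 555 had a fraction of 0 over 23 reads, the GGACC at position 595 had 0.182 over 23, and the GGACA at position 615 had 0.5 over 23. The last 2 lie 20 nt apart, and the GGACA was higher by 0.318, in the order of the motif medians (0.667 and 0.231). All 3 stood below the median of their motif. Over the 4 Dnmt1 sites listed in both replicates the mean fraction was 0.284 ± 0.0123 (SD, n = 2), and no pair of values differed by more than 0.0556. That mean counts the low place on each of 3 transcripts. With each of the 2 places counted once, on its deepest transcript, the mean was 0.514 ± 0.0197 (SD, n = 2). The other 7 listed positions of Dnmt1 had 6 to 19 reads. Among them the AGACT at position 5310 had 0.273 over 17 reads in replicate 1 alone, and its counterpart at 5191 of ENSMUST00000177754.8 had 0.25 over 13.

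Uhrf1 (chromosome 17, 56610321 to 56630486), whose protein reads hemimethylated DNA and brings in DNMT1, had 8 sites at 4 places on 2 transcripts. In the abutting pair printed above, the AGACT at position 3485 had a fraction of 0.889 in replicate 1 (18 reads) and 0.706 in replicate 2 (30 reads). The GGACA at position 3490 had 0.25 over 18 reads and 0.25 over 30 reads. The first adenosine was higher by 0.639 in replicate 1 and by 0.456 in replicate 2, and the values of both adenosines did not overlap. This order is the opposite of that of the motif medians. Among all sites of replicate 2, 8.82% of AGACT sites reached 0.706 and 17.2% of GGACA sites were at or below 0.25.

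The pair recurred on other Uhrf1 transcripts. On ENSMUST00000113039.8, position 3290 had 0.706 over 33 reads and position 3295 had 0.333 in replicate 2 (33 reads). Position 3295 had 0.3 in replicate 1 (15 reads), where position 3290 was not listed. On ENSMUST00000113035.7, with 12 reads each in replicate 2, the values were 0.5 at position 3301 and 0.429 at position 3306. The first adenosine was thus higher by 0.373 on ENSMUST00000113039.8 and by 0.0714 on ENSMUST00000113035.7, whose depth is below that required of a site. Reads of these transcripts may be shared, and how the authors assigned reads to transcripts is not given in the sources used here. An AGACT followed directly by a GGACA was found as a pair of sites in 1 other gene of replicate 2, where the second was higher by 0.384.

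The other sites of Uhrf1 did not reach 0.5. The GGACC at position 2162 of ENSMUST00000001258.14 had 0.0833 in replicate 1 (15 reads) and 0.222 in replicate 2 (23 reads). On ENSMUST00000113039.8, position 1967 had 0.167 over 7 and 0.214 over 20 reads, which just meets the minimum. The GGACT at position 2757 of ENSMUST00000001258.14 had 0.4 over 16 and 0.158 over 25 reads, the widest gap between replicates at any site of the set (0.242). At the same place on ENSMUST00000113039.8, position 2562, the order was the other way, with 0.167 over 8 and 0.286 over 23 reads. The order of the replicates thus differed between transcripts. The mean fraction over the 7 Uhrf1 sites listed in both was 0.316 ± 0.00872 (SD, n = 2), and 0.386 ± 0.0447 (SD, n = 2) with each of the 4 places counted once. Differences of opposite sign cancel in such means, so the SD does not measure agreement at single sites. The median absolute difference over the 7 sites was 0.119. The other 16 listed positions, on 4 transcripts, had 5 to 17 reads and fractions from 0 to 0.714.

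Tdg (chromosome 10, 82465662 to 82486633), the glycosylase that excises oxidised methylcytosine, was the deepest gene of the set. Its 10 sites lay at 6 places on 2 transcripts, ENSMUST00000092266.10 and ENSMUST00000151390.7. The GGACA at position 1999 of the former had a fraction of 1 in replicate 1 (26 reads) and 1 in replicate 2 (52 reads). On the latter, position 2067, the fraction was again 1 over 24 reads and 1 over 70 reads. All 4 measurements were at the maximum, which 7.79% of GGACA sites of replicate 2 reached.

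The nearest site before it, at a distance of 170 nt, was lower on both transcripts. The motif medians have the same order (GGACT 0.230, GGACA 0.667). The GGACT at position 1829 of ENSMUST00000092266.10 had 0.05 in replicate 1 (25 reads) and 0.0541 in replicate 2 (50 reads), a mean of 0.0521 ± 0.0029 (SD, n = 2). On ENSMUST00000151390.7, position 1897, it had 0.235 over 24 and 0.115 over 70 reads. A second GGACT, 18 nt further on at position 1847 of ENSMUST00000092266.10, had 0.5 in replicate 1 (26 reads) and was not listed in replicate 2. The gap between these neighbours was 0.45 in replicate 1 and has no second measurement.

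Toward the end of Tdg a GGACC place was high for its motif. At position 2805 of ENSMUST00000092266.10 the fraction was 0.5 in replicate 1 (32 reads) and 0.682 in replicate 2 (62 reads). At position 2873 of ENSMUST00000151390.7 it was 0.667 over 30 and 0.7 over 71 reads. These 4 values all lay above the upper quartile of 0.444 for GGACC sites of replicate 2. A further GGACC, position 1392 of ENSMUST00000151390.7, had 0.444 over 22 and 0.676 over 65 reads. Its replicates differed by 0.231, the only one of the 9 sites with 20 reads in both to differ by 0.2 or more, against 6.11% of all such sites. On ENSMUST00000092266.10 the place was listed in replicate 1 alone, as position 1324 with 0.714 over 24 reads.

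The remaining Tdg sites were nearer the start. The GGACA at position 974 of ENSMUST00000092266.10 had 0.75 in replicate 1 (21 reads) and 0.833 in replicate 2 (41 reads), and on ENSMUST00000151390.7, position 1042, it had 0.75 over 20 and 0.594 over 60 reads. The transcripts were equal in replicate 1 and 0.239 apart in replicate 2. The GGACC at position 449 of ENSMUST00000092266.10, listed in replicate 2 alone, had 0.154 over 30 reads. Position 38, with 7 reads in each replicate, had 0.571 and 0, and position 558 of ENSMUST00000151390.7 had 0.105 in replicate 1 (20 reads) alone. The mean over the 9 sites listed in both was 0.614 ± 0.0202 (SD, n = 2), and 0.618 ± 0.00163 (SD, n = 2) with each of the 5 places counted once. Differences of opposite sign cancel in these means too. Over the 9 sites the median absolute difference was 0.0833 and the largest 0.231. The means of the 3 genes cover different motifs and as few as 2 places, so no order of the genes is drawn from them.

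**Figure D2:**
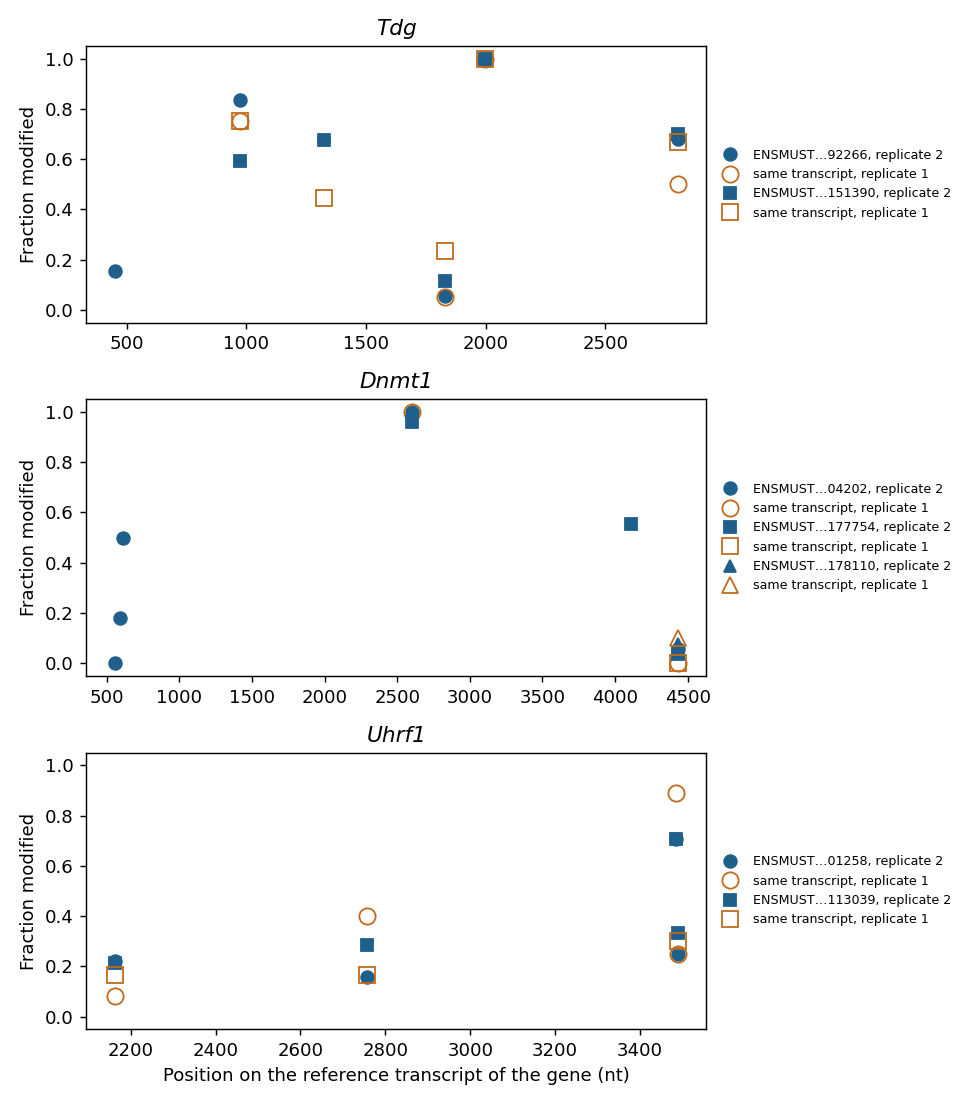
Deposited fraction modified at each site of Tdg, Dnmt1 and Uhrf1 against its position (nt) on the reference transcript of the gene, with symbols for transcripts (identifiers shortened), filled for replicate 2 and open for replicate 1 where it was listed. Tdg reaches 1 near position 1999 and lies between 0.05 and 0.235 at 1829, Dnmt1 lies near 1 at 2603 and below 0.1 at 4434 in replicate 2, and the abutting Uhrf1 adenosines separate at 3485 and 3490.

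The de novo methyltransferases and Tet3 were seen at low depth, and their values carry a wide error. Dnmt3a (chromosome 12, 3856007 to 3964443) had 16 positions on 2 transcripts in replicate 2 with 5 to 17 reads, and fractions from 0 to 1. At position 3188 of ENSMUST00000174817.7, a GGACA, the fraction was 1 in replicate 1 (8 reads) and 0.882 in replicate 2 (17 reads), and the same place on ENSMUST00000020991.14 had 1 over 14 reads. At position 2998, also a GGACA, it was 1 over 5 reads and 0.917 over 17 reads. Its counterpart, position 2994 of ENSMUST00000020991.14, had 0.8 over 14 reads in replicate 2, a level that 37.7% of GGACA sites reach. These GGACA positions of ENSMUST00000174817.7 were the only Dnmt3a positions listed in both replicates on the same transcript. Other GGACA places of Dnmt3a were lower in part. Position 2825 had 0.889 over 16 reads and its counterpart 0.5 over 13, both in replicate 2. Position 2558 had 0.333 over 5 reads in replicate 1 alone. A GGACC place was listed on a different transcript in each replicate, with 0 over 5 reads at position 2749 of ENSMUST00000174817.7 in replicate 1 and 0 over 13 reads at position 2745 of ENSMUST00000020991.14 in replicate 2. The GGACC at position 4017 had 1 over 10 reads and its counterpart 0.833 over 12, both in replicate 2 alone. The GGACC at position 1010 had 0 over 8 reads, and its counterpart 0 over 5. Over the 16 positions of replicate 2 the median was 0.661.

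Tet3 (chromosome 6, 83339355 to 83436066), the one TET gene listed, had 8 positions on ENSMUST00000089622.10, all between 8792 and 10219 and all in replicate 2. Their coverage was 11 to 15 reads and their fractions 0 to 0.846, with a median of 0.423. The highest was a GGACA at position 10195 over 15 reads and the lowest a GGACC at position 9914 over 13 reads. Dnmt3b (chromosome 2, 153491370 to 153529650) had 4 positions with 5 or 6 reads in replicate 2, and fractions of 0, 0, 0.5 and 0.667. At this depth its level was not determined.

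Read as a set, the 27 sites had a median fraction of 0.333 in replicate 2 (interquartile range 0.156 to 0.703), beside 0.345 (0.15 to 0.673) over all sites of that library. A fraction of 0.5 or more was found at 13 of 27 sites (48.1%), against 37.5% of all sites, and 7 of the 13 were in Tdg. By motif, the count was 8 of 10 at GGACA (background 64.1%), 3 of 10 at GGACC (21.4%), 2 of 3 at AGACT (24.1%) and 0 of 4 at GGACT (23.2%). The counts are few and include the same place on more than 1 transcript: the 27 sites stand for 16 places, of which 8 reached 0.5 on their deepest transcript. The median moved with the minimum, to 0.5 with 10 reads and to 0.679 with 50 reads, which left 8 sites, all in Tdg. Against the median of their own motif, 11 sites were higher and 16 lower. The median difference was 0.25 in Tdg, -0.0126 in Uhrf1 and -0.154 in Dnmt1, and each of the 3 genes had sites on both sides. These medians also count a place again on each transcript that carries it, and were not taken with places merged.

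**Figure D3:**
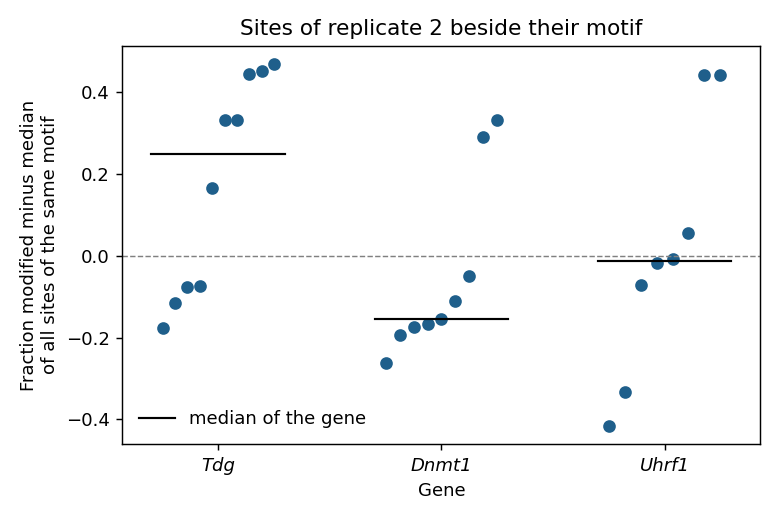
Fraction modified in replicate 2 minus the median of all sites of the same motif in that library, for each site of Tdg, Dnmt1 and Uhrf1, with the median of each gene as a black line and 0 dashed. The median is above 0 for Tdg (0.25), below it for Dnmt1 (-0.154) and close to it for Uhrf1 (-0.0126), while the sites of each gene spread on both sides.

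At the 20 sites listed in both libraries the fraction was higher in replicate 2 at 11, lower at 5 and equal at 4. The median absolute difference was 0.0516, beside 0.075 over the 12121 sites of all genes listed in both. At the 9 Tdg sites with 20 reads in both it was 0.0833, beside 0.0517 over all such sites. Of the 12 positions of the set with 20 reads in replicate 1, 3 were not listed in replicate 2, all in Tdg, although the 10 Tdg positions listed in both were as deep there or deeper. The same held for 19.0% of all positions with 20 reads in replicate 1.

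**Figure D4:**
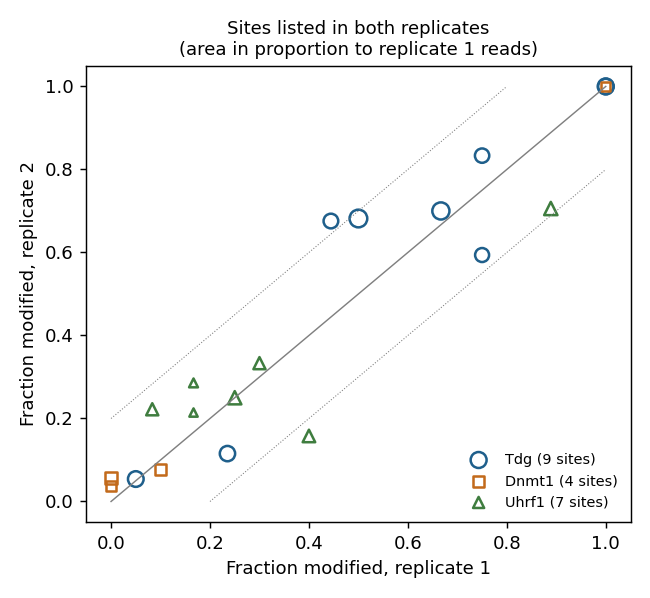
Fraction modified in replicate 2 against replicate 1 at the 20 sites listed in both, by gene, with symbol area in proportion to the reads of replicate 1; the solid line marks equality and the dotted lines a difference of 0.2. One Tdg site and one Uhrf1 site lie beyond the dotted lines.

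Some places were matched over transcripts, whose reads may be shared, so that their agreement does not measure error. At 10 such places of replicate 2 with 20 reads on 2 or more transcripts, the fractions of the transcripts differed by a median of 0.0408. The largest difference there was 0.239, at position 974 of Tdg. In replicate 1 only Tdg had such places, with differences from 0 to 0.270, the largest at position 1324.

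Other genes of the pathway were taken from a list of 39: readers of methylated DNA, cofactors, enzymes of the methyl donor cycle and base excision repair proteins. Of these, 30 were listed in replicate 2 and 21 of the 30 had a site, beside 48.6% of all named genes listed there. They held 95 sites. Their median fraction was 0.296 (interquartile range 0.155 to 0.643), and 36 sites (37.9%) reached 0.5, against 37.5% of all sites. Counted on each transcript separately, the genes with the most sites were Mbd3, a subunit of the NuRD complex, with 13, Xrcc1, a repair scaffold, and Ung, the uracil glycosylase, with 9 each, and Ahcy, which clears S-adenosylhomocysteine, and Lig1, a DNA ligase, with 7 each. The sites of Mbd3 and Ung lie on 2 transcripts each and can repeat a place, while those of the other 3 genes lie on 1. Over sites listed in both replicates the mean fraction was 0.370 ± 0.0212 in Mbd3 (10 sites), 0.416 ± 0.0711 in Xrcc1 (6), 0.484 ± 0.0387 in Ung (7), 0.656 ± 0.0680 in Ahcy (5) and 0.531 ± 0.0820 in Lig1 (4), each SD with n = 2. Uhrf2, the paralogue of Uhrf1, had 5 sites with fractions from 0 to 1 and was chosen for mention after its values were seen.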

How the data were processed

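The 2 native RNA libraries (SQK-RNA002 kit, per the labels' protocols) were compared. For each position on an Ensembl transcript the deposited tables give a fraction modified (a fraction from 0 to 1) and a coverage, a whole-number count of reads, as deposited by the authors. The denominator of the fraction, the base caller, the aligner and the modification caller are not given in the sources used here. Within the rounding to 4 decimals, the fraction is a whole multiple of 1 over the coverage at 6 of the 27 sites, 4 of which have a fraction of 0 or 1. The fraction thus need not rest on all reads, and no interval was set around it. The submitters' processing notes name mm10, yet the gene starts of all 6 listed genes lie over 1000 bases from those of RefSeq GRCm38.p6, so coordinates are as deposited.

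Positions of both plus tables were joined on transcript and exact position (Python 3.11.15, pandas 2.3.3). Transcripts of a gene were aligned by the most frequent shift between positions of the same motif (at least 2 positions), tested on simulated data. Named were all 8 genes, the highest and lowest site of each with 3 or more sites, the 5 deepest sites, sites whose replicates differ by 0.2 or more, pairs within 20 nt and the 5 pathway genes with most sites. Further sites and shallower positions are described to account for each gene and were not chosen by this rule. The genes and lists were chosen with earlier results of these data known. Alternatives were the coverage minimum, the threshold on the fraction, 1 transcript per gene and matching within 5 nt. Placement in coding or untranslated sequence was not analysed here.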

Additional observations from a re-analysis of the deposited data

How the results depend on the processing

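Counts and medians of the set depend on the coverage minimum. With no minimum, 10 reads and 50 reads there were 69, 58 and 8 sites (27 with 20 reads), 26, 17 and 0 positions with that depth in both replicates (9), 34, 31 and 6 sites at a fraction of 0.5 or more (13), and a median fraction of 0.444, 0.5 and 0.679 (0.333). The 8 sites with 50 reads are all in Tdg. With 1 transcript per gene these values were 14, 5, 7 and 0.417. A threshold of 0.7 left 8 high sites and one of 0.3 gave 14. The share of all sites that is high was taken only at 0.5 and 20 reads (37.5%). High counts at other settings thus describe the set alone. Adding the median difference from the motif to the median of all sites gave 0.296. Merging places over transcripts, chosen after seeing the data, gave 16 sites, 8 of them high, and a median of 0.417. By motif, the AGACT median of 0.706 became 0.472 with no minimum, 0.5 with 10 reads and 0.353 with 1 transcript per gene. The GGACA median became 0.817 with 10 reads, 1 with 50 reads and 0.594 with 1 transcript. The GGACC median became 0.682 with 50 reads, and the GGACT median 0.286, 0.0848 and 0.201 with 10 reads, 50 reads and 1 transcript. The cause was not tested. The median absolute difference between replicates ranged from 0.0516 to 0.0893 over its 5 alternatives. The spread set beside it (0.081) is an SD over sites, which are not replicates. As it is wider than the median itself, it cannot judge stability. With 50 reads the Tdg mean moved from 0.614 to 0.592, and Dnmt1 and Uhrf1 had no site listed in both. With places merged, the means of Dnmt1 and Uhrf1 moved from 0.284 to 0.514 and from 0.316 to 0.386. Leaving out a replicate cannot move a mean of 2 by more than 1 SD and says nothing of stability. No paired analysis between groups was possible because there is 1 group. Depth limits Dnmt1 and Uhrf1, whose replicate 1 values rest on 18 reads or fewer.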
